A study of Mus musculus with 9 samples.

Results

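The 6 genes described here act on fatty acids, lipoproteins and lysolipids. They are Ehhadh, Acsl6, Apoe, Apoh, Mogat2 and Enpp2, and they were taken by name from the 489 distinct genes of the deposited expression tables. RNA sequencing was done on kidneys of ICR mice in 3 groups of 3 samples. The young group was 2 months old and untreated, the old group was 20 months old and untreated, and the 3HB group was 20 months old and had received 3HB-Na (the sodium salt of 3-hydroxybutyrate, a ketone body) in the drinking water (1 g/L) since the age of 11 months. The animals of all 3 groups were male by the study's methods, no transgene or mutant allele was named, and the labels do not say whether each sample was a separate mouse, so the spread between samples may be partly technical. Both tables hold only genes that the authors had called as changed, 389 between young and old kidneys and 113 between 3HB and old kidneys, and all 6 genes stood in the first table and 0 in the second. The age difference of each gene was therefore part of how it came to be listed and is given below as a description. The 3HB comparison did not list them, although it shares the old samples with the age comparison. The 6 genes were chosen with earlier results of these data known, so the 3HB comparison may not be free of that choice. The unit of the values is not stated and the depth of the samples is unknown, so the levels of the 6 genes were compared between samples for 1 gene at a time and not with each other.

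Fatty acids enter metabolism after an acyl-CoA synthetase has joined them to coenzyme A. Very long acyl-CoAs and dicarboxylic acids are shortened in peroxisomes. Others, common long acyl-CoAs among them, are oxidised in mitochondria, and the kidney, above all its proximal tubule, draws much of its energy from this route. Lipoproteins carry triglyceride and cholesterol between organs, and lysolipids, which keep a single acyl chain, include the signalling lipid lysophosphatidic acid. Acsl6 is a long-chain acyl-CoA synthetase known mainly from brain. Ehhadh is the bifunctional hydratase and dehydrogenase of peroxisomal beta-oxidation and a well-known target of the nuclear receptor PPARalpha. Apoe is the ligand by which receptors of the LDL receptor family take up lipoproteins. Apoh (beta-2-glycoprotein I) is a plasma protein of hepatic origin that binds anionic phospholipids. Mogat2 joins an acyl chain to monoacylglycerol and is best known from fat absorption in the intestine, and Enpp2 (autotaxin) is the secreted lysophospholipase D that makes lysophosphatidic acid.

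In the GENCODE annotation of GRCm38, Ehhadh (ENSMUSG00000022853) lies at chr16:21761287-21787807 on the minus strand, with 1 transcript of 7 exons. Acsl6 (ENSMUSG00000020333) lies at chr11:54303798-54364756 on the plus strand and Apoe (ENSMUSG00000002985) at chr7:19696109-19699188 on the minus strand. Apoh (ENSMUSG00000000049) lies at chr11:108343354-108414396 on the plus strand and overlaps Prkca, a protein-coding gene of the opposite strand, and Gm11656, which is intronic on its own strand. Mogat2 (ENSMUSG00000052396) lies at chr7:99219084-99238619 and Enpp2 (ENSMUSG00000022425) at chr15:54838901-54952892, both on the minus strand. Acsl6, Ehhadh, Mogat2 and Enpp2 each overlap 1 non-coding gene of the opposite strand and Apoe overlaps 0 genes. None of these overlapping genes was in a table. Whether the counting used strand is not given in the sources used here, so for the overlapped genes the reads of both strands cannot be told apart.

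RefSeq promoters of GRCm38.p6, running from 250 bases before to 50 bases after a start site, were found for 4 of the 6 genes. Those of Ehhadh, Apoe and Acsl6 are shown, Ehhadh because it was the gene whose 3HB and old samples did not overlap, and Apoe and Acsl6 because both were highest in the same old and the same 3HB sample. Ehhadh is read from chr16:21787785-21788084 on the minus strand, Apoe from chr7:19699139-19699438 on the minus strand and Acsl6 from chr11:54303574-54303873 on the plus strand, each with the start site nearest to that of the gene in GENCODE. Capitals mark matches on either strand to AGGTCA (the nuclear receptor motif), CCAAT, the GC box GGGCGG or the TATA box TATAAA.
Ehhadh: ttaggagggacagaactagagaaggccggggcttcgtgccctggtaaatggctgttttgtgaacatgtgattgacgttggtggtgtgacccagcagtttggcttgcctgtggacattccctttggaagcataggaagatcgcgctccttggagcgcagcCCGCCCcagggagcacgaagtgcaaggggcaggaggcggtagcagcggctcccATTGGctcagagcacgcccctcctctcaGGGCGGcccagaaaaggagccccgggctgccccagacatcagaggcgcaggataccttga
Apoe: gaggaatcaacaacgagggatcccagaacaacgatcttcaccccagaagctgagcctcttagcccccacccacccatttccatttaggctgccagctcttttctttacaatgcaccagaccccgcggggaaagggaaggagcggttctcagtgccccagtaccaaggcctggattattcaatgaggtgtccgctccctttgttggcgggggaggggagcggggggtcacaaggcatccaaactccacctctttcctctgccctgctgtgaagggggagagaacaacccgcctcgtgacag
Acsl6: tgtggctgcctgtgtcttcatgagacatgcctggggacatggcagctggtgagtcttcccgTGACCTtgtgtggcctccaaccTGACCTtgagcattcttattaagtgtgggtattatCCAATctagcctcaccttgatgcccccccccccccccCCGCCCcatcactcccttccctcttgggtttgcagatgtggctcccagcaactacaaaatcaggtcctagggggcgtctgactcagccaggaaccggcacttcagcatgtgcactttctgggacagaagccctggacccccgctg
The Ehhadh promoter held CCAAT on the reverse strand from 38 bases upstream of the start, and GGGCGG from 91 bases upstream on the reverse strand and from 10 bases upstream on the forward strand. The Apoe window shown held 0 matches to these motifs. RefSeq gives Apoe 2 further start sites, of which the window 567 bases from the GENCODE start held TATAAA on both strands, in overlapping letters from 100 and 96 bases upstream, and the other held 0 matches. The Acsl6 window held AGGTCA on the reverse strand from 189 and 167 bases upstream, CCAAT from 132 bases upstream and GGGCGG on the reverse strand from 95 bases upstream. Of 2 further Acsl6 windows, GGGCGG was in both and CCAAT in 1. The window of Apoh, whose RefSeq start lies 51943 bases inside its GENCODE gene, held AGGTCA on the reverse strand from 215 bases upstream. Among all 32851 promoters of the same length, AGGTCA was found in 16.3%, CCAAT in 37.4%, GGGCGG in 35.7% and TATAAA in 13.6%. A direct repeat of AGGTCA spaced by 1 base, the motif of PPAR and RXR dimers, was in 13 of them and in none of the windows of the 4 matched genes. These are letter matches in short windows and say nothing of binding.

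Between young and old kidneys, 3 of the genes were lower (Ehhadh, Mogat2, Enpp2) and 3 were higher (Acsl6, Apoe, Apoh) in the old group. In 5 of 6 genes the samples of both groups did not overlap, and Enpp2 was the exception. Of all 389 genes called for age, 360 (92.5%) showed no overlap, and the listing itself fixes such a share, so nothing is read from the count. The median absolute difference of log2(value + 1) was 1.44 over the 6 genes and 1.37 over the 389 genes (271 higher with age and 118 lower). In whole tissue, fewer cells of a type and less RNA per cell cannot be told apart. Old replicate 3 and 3HB replicate 2 stood apart from their groups in several genes, and the values they moved most are also given without them. The plot of normalised values by sample shows all 9 values of each gene.

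**Figure D1:**
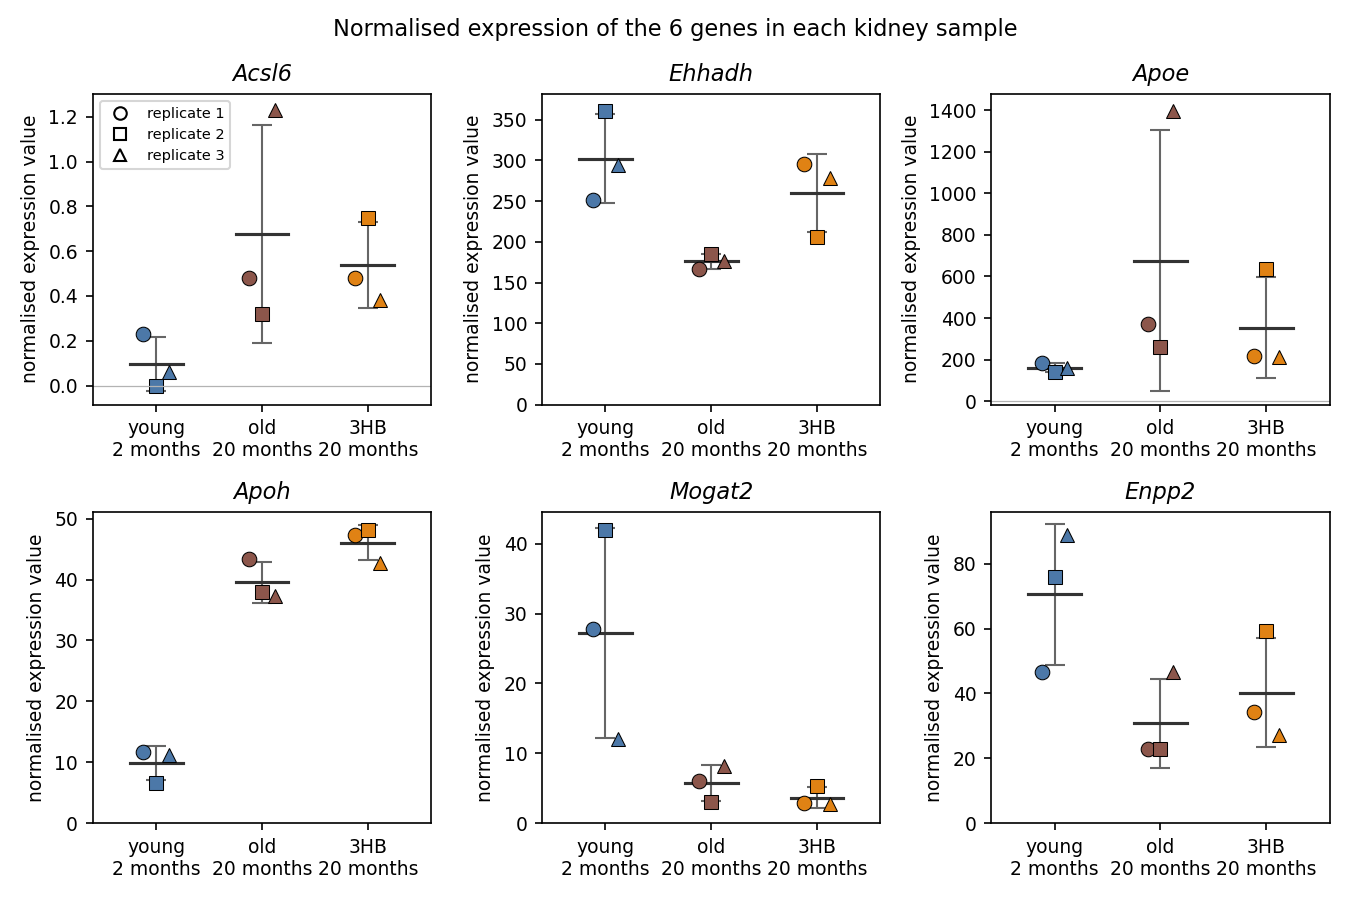
Normalised expression value (y axis, unit not stated by the authors) of each gene in the young, old and 3HB kidneys (x axis), with points for the 3 samples of a group, shaped by replicate number, a bar at the mean and whiskers of 1 SD. Ehhadh lies between 166.96 and 184.61 in old and between 205.38 and 295.95 in 3HB kidneys, and Apoe reaches 1395.60 in old replicate 3 and 634.40 in 3HB replicate 2.

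Acsl6 was near the lower end of the scale in every kidney. Its values were 0.23, 0 and 0.06 in young replicates 1 to 3, 0.48, 0.32 and 1.23 in old replicates 1 to 3, and 0.48, 0.75 and 0.38 in 3HB replicates 1 to 3. All 6 samples of 20 months were above all young samples, and old and 3HB kidneys overlapped. The old mean exceeded the young mean by 0.58 on the log2(value + 1) scale (SE 0.25, n = 3 and 3), and the 3HB mean exceeded the young mean by 0.48 (SE 0.14, n = 3 and 3). Without old replicate 3 the old against young difference was 0.36. Values under 1 are compressed by this scale. With 0.1 added in place of 1, the difference of all samples became 1.98 for old against young and 1.83 for 3HB against young. Between 3HB and old kidneys the difference was -0.095 (SE 0.25, two-sided exact permutation test p = 0.9, n = 3 and 3), and its sign rested on old replicate 3, without which it was 0.13. In order of mean level the groups ran young, 3HB, old, with 3HB and old not separated beyond their spread.

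Ehhadh was lower in old kidneys, and it was the gene of the 6 whose 3HB and old samples did not overlap. Its values were 251.93, 360.53 and 294.18 in young, 166.96, 184.61 and 176.47 in old, and 295.95, 205.38 and 278.24 in 3HB kidneys. Old kidneys spanned the narrowest range, with a coefficient of variation of 5.02% against 18.1% in young and 18.5% in 3HB kidneys, and every 3HB sample was above the highest old sample. The old mean was below the young mean by a log2 difference of -0.76 (SE 0.15, n = 3 and 3), a level 1.72-fold lower. With 3HB the mean was 1.48-fold that of untreated old kidneys, a log2 difference of 0.54 (SE 0.17, n = 3 and 3). The two-sided exact permutation test gave p = 0.1, the smallest value that 3 samples against 3 allow, so p cannot go below 0.05 in this design. Leaving out each sample in turn kept this difference between 0.44 and 0.70. Between 3HB and young kidneys the samples overlapped and the difference was -0.22 (SE 0.22, exact permutation p = 0.5, n = 3 and 3), with -0.34 to -0.059 on leaving out each sample, so the order of the means was old, 3HB, young, with the last pair not separated beyond their spread.

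Of the 376 genes called for age and not for 3HB, 44 (11.7%) had 3HB and old samples that did not overlap, against 1 of the 6 genes here, Ehhadh. The median absolute difference between 3HB and old kidneys was 0.44 over the 6 genes and 0.26 over the 376 genes, and without old replicate 3 it was 0.21 and 0.25. Between 3HB and young kidneys, 4 of the 6 genes (Acsl6, Apoe, Apoh and Mogat2) did not overlap, and 320 of the 389 genes called for age (82.3%) did not. The young samples stand in both this and the age comparison, so the share follows in part from the listing.

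**Figure D2:**
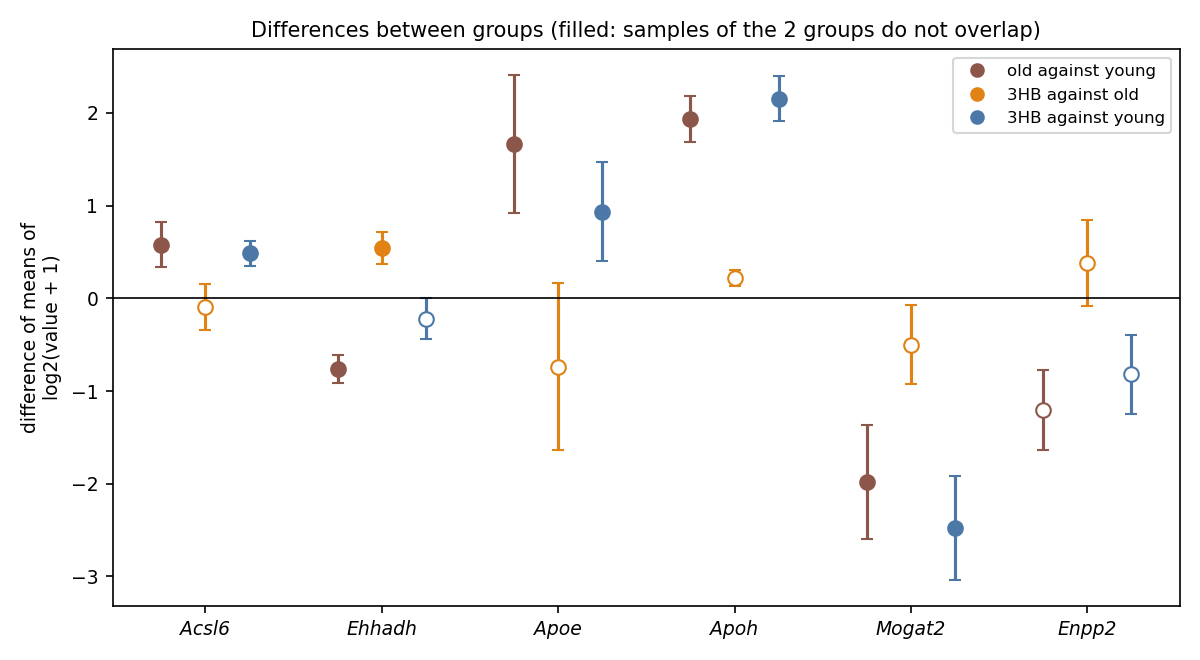
Difference between group means of log2(value + 1) (y axis) for each gene (x axis) in the 3 comparisons, with whiskers of 1 SE (n = 3 and 3), where filled points mark groups whose samples do not overlap. In 3HB against old kidneys Ehhadh, at 0.54, is filled and the other 5 genes are open.

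Apoe was higher in old than in young kidneys and varied most among the samples of 20 months. Young kidneys were at 185.64, 139.90 and 160.29, old kidneys at 372.74, 260.49 and 1395.60, and 3HB kidneys at 215.11, 634.40 and 213.66. All 6 samples of 20 months were above the highest young sample, and old replicate 3 and 3HB replicate 2 stood far above the rest. The log2 difference was 1.67 (SE 0.74, n = 3 and 3) for old against young and 0.93 (SE 0.53, n = 3 and 3) for 3HB against young. The first was 0.95 without old replicate 3 and the second 0.41 without 3HB replicate 2. For 3HB against old it was -0.74 (SE 0.90, two-sided exact permutation test p = 0.5, n = 3 and 3). This value rested on single samples, being -0.017 without old replicate 3 and -1.26 without 3HB replicate 2, where the groups no longer overlapped. The means ran young, 3HB, old, and 3HB and old were not separated beyond their spread.

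Apoh was higher in every kidney of 20 months than in every young kidney, with coefficients of variation of 28.6% in young, 8.61% in old and 6.28% in 3HB kidneys. It was at 11.72, 6.61 and 11.21 in young, 43.44, 37.87 and 37.27 in old, and 47.23, 48.19 and 42.77 in 3HB kidneys. Among the young, replicate 2 was the lowest, and a single 3HB sample, replicate 3, lay below the highest old sample. Its mean was 4.01-fold higher in old than in young kidneys, a log2 difference of 1.94 (SE 0.25, n = 3 and 3), and the 3HB against young difference was 2.15 (SE 0.24, n = 3 and 3). The 3HB against old difference was 0.22 (SE 0.086, two-sided exact permutation test p = 0.2, n = 3 and 3), with 0.18 to 0.29 when each sample was left out in turn. The means ran young, old, 3HB, and the last pair overlapped.

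Both lipoprotein genes are known from cells other than tubule cells, so marker genes were read beside them. Of 22 macrophage markers, Lyz2, Mmp12 and Ms4a7 were in the tables, and their summed value was 8.46 to 9.52 in young, 25.75 to 78.18 in old and 37.83 to 45.49 in 3HB kidneys, with the highest sums in old replicate 1, where Apoe was not highest, and in 3HB replicate 2, where it was. The sums add listed values of genes whose unit is not stated and serve only to set samples side by side. Lyz2 held the highest of these values, 72.01 in old replicate 1 and 42.87 in 3HB replicate 2, whereas Mmp12 was highest among 3HB kidneys in replicate 1, at 2.31. Of 17 hepatocyte markers, the fibrinogen genes Fga, Fgb and Fgg were in the tables. Their sum was 5.24 to 9.22 in young kidneys, 37.70, 14.47 and 66.88 in old replicates 1 to 3, and 15.40, 42.07 and 8.68 in 3HB replicates 1 to 3, so that it was highest in the same old and 3HB samples as Apoe. Apoh was lowest of the old kidneys in replicate 3, at 37.27, and lay at 42.77 to 48.19 in the 3HB kidneys. The other 19 macrophage and 14 hepatocyte markers, albumin among the latter, were not in the tables of called genes, which says nothing of their level. The part of these cells in the Apoe and Apoh values was not tested.

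Mogat2 was lower in every kidney of 20 months than in every young kidney. It was at 27.73, 42.01 and 11.99 in young, 6.07, 3.03 and 8.19 in old, and 2.90, 5.36 and 2.74 in 3HB kidneys. Young samples spread widely, with a coefficient of variation of 55.1%, and the lowest of them was 11.99 against a highest old value of 8.19. The old mean was 4.73-fold and the 3HB mean 7.43-fold lower than the young mean, with log2 differences of -1.98 (SE 0.62, n = 3 and 3) and -2.48 (SE 0.56, n = 3 and 3). The 3HB against old difference was -0.50 (SE 0.43, two-sided exact permutation test p = 0.2, n = 3 and 3), with 3HB replicate 2 inside the old range. It was -0.24 without old replicate 3, and the groups no longer overlapped without old replicate 2 (-0.83) or without 3HB replicate 2 (-0.74). The means ran 3HB, old, young, and 3HB and old were not separated beyond their spread.

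Enpp2 was lower in old kidneys on average, and its groups met at a single pair of values. It was at 46.73, 75.92 and 89.03 in young, 22.77, 22.81 and 46.74 in old, and 34.16, 59.24 and 27.34 in 3HB kidneys. Old replicate 3 was level with young replicate 1 at 46.74 against 46.73, and the other old samples were below all young samples. The log2 difference was -1.20 (SE 0.43, n = 3 and 3) for old against young and -0.82 (SE 0.42, n = 3 and 3) for 3HB against young. The groups no longer overlapped without old replicate 3 in the first (-1.54) or without 3HB replicate 2 in the second (-1.13), and in both they were also separate without young replicate 1. For 3HB against old it was 0.38 (SE 0.47, two-sided exact permutation test p = 0.5, n = 3 and 3), and it was 0.073 without 3HB replicate 2 and 0.72 without old replicate 3, where the groups no longer overlapped. The means ran old, 3HB, young, and no neighbours in this order were free of overlap.

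Within the groups of 20 months, 4 of the genes were highest in the same pair of samples. Acsl6, Apoe, Mogat2 and Enpp2 each had their highest old value in replicate 3 and their highest 3HB value in replicate 2. Of the 389 genes called for age, 92 (23.7%) had this pattern, while each of the other 8 pairs of an old and a 3HB sample shared its highest values in 22 to 51 genes. The smaller of the gaps by which both samples exceeded the rest of their groups was 1.56 on the log2(value + 1) scale for Apoe, the 2nd of all 489 genes, and 0.78 for Enpp2, the 10th. Mogat2 came 35th with 0.38 and Acsl6 59th with 0.24. Ehhadh went the other way in 3HB replicate 2, which was its lowest 3HB sample, and Apoh showed no such rise in old replicate 3, its lowest old sample. Slc7a12, an amino acid transporter, ranked 1st, at 12.96 in old replicate 3 and 24.11 in 3HB replicate 2 against at most 3.47 in the other samples.

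Summed values of 5 B and plasma cell markers were 853.46 in old replicate 3 against 2982.99 and 3083.12 in the other old kidneys, and 2305.08 in 3HB replicate 2 against 2351.73 and 3438.51 in the other 3HB kidneys. Igkc held the highest listed values among them, at 771.38 in old replicate 3 against 2648.01 and 2743.16. Cd79a, Mzb1 and Jchain were also lowest in that old kidney, whereas Ighm, at 14.93, lay between the other old kidneys. The part of these cells was not tested. With both samples left out, a choice made after their values were seen, 4 of the 6 genes showed no overlap between 3HB and old kidneys, where 41.2% of the 376 genes did. Ehhadh then differed by 0.71, Apoe by -0.54, Mogat2 by -0.48 and Enpp2 by 0.41 on the log2(value + 1) scale, and with 2 samples against 2 the smallest p an exact permutation test allows is 0.333. With all 6 samples kept, Ehhadh was free of overlap, while Apoe, Mogat2 and Enpp2 overlapped. Leaving samples out cannot create overlap, so the count of 4 could not have lost Ehhadh.

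**Figure D3:**
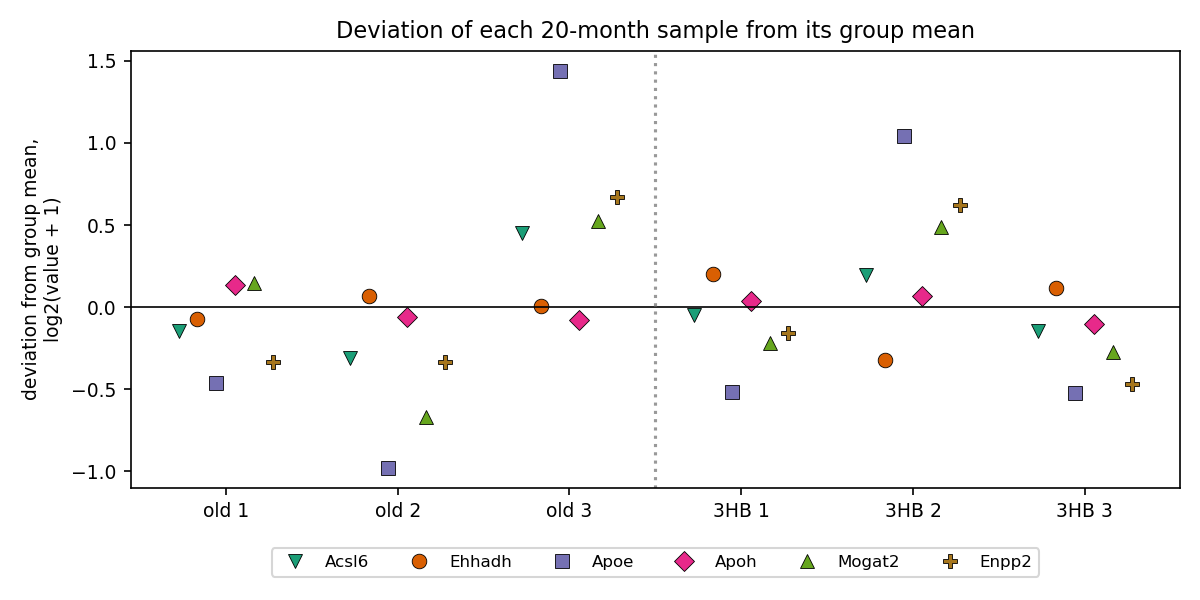
Deviation of each sample of 20 months from the mean of its group, in log2(value + 1) (y axis), for the 3 old and the 3 3HB samples (x axis), with a symbol for each gene. In old replicate 3 and 3HB replicate 2 the symbols of Apoe, Enpp2, Mogat2 and Acsl6 lie above 0, and Ehhadh lies lowest in 3HB replicate 2.

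Other genes of lipid metabolism were counted over 9 lists with 303 genes, the 6 genes included. In all 10 of these were in a table, 9 called for age and 1 for 3HB, which adds Cyp4a12b, Gpat3, Gdpd3 and Lrp2 to the 6. Of 25 genes of peroxisomal oxidation 1 was called, Ehhadh, lower in old kidneys. Of 22 genes of mitochondrial oxidation, 19 genes listed for ketone body metabolism and transport, and 20 lipid transcription factors, PPARalpha among them, 0 were in either table. Of 41 genes for activation and uptake Acsl6 was called, and of 26 for omega-oxidation and synthesis Cyp4a12b, both higher in old kidneys. Of 60 lipoprotein genes Apoe and Apoh were called for age and Lrp2 for 3HB, all higher. Of 37 acylglycerol genes Gpat3 was higher and Mogat2 lower, and of 53 lysophospholipid genes Enpp2 and Gdpd3 were both lower in old kidneys. Uncalled genes are absent from the tables, so these counts do not show that the remaining genes were alike between groups. The share called over all measured genes cannot be had either, so whether 10 of 303 is many or few cannot be said.

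The KEGG terms deposited with the tables placed the 6 genes in 10 pathways, counted here as lipid-related, together with 9 other listed genes. Slc2a4, Prkcq and Npy entered only through adipocytokine signalling, which is not a pathway of lipid metabolism. Age was the called comparison for 8 of the 9 genes, with 4 in each direction, and 3HB for 1. Fatty acid degradation held Acsl6, Ehhadh, Acat3 and Cyp4a12b, and the called genes of this pathway did not share a direction. Acat3, a cytosolic acetyl-CoA acetyltransferase, was at 12.19, 11.71 and 16.70 in young, 28.21, 31.99 and 36.19 in old, and 34.44, 27.92 and 29.31 in 3HB kidneys, a log2 difference of 1.20 (SE 0.18, n = 3 and 3) between old and young. Cyp4a12b, of the Cyp4a omega-hydroxylases, was at 0.81 to 1.38 in young, 2.69 to 5.88 in old and 3.99 to 5.76 in 3HB kidneys, and because it has a near-identical neighbour in Cyp4a12a its values are uncertain. In this pathway Acsl6, Acat3 and Cyp4a12b were higher and Ehhadh lower in old kidneys. Butanoate metabolism held Ehhadh and Acat3, both called for age. Acat3 was not among the 19 genes listed for ketone body metabolism and transport, so the count of 0 for that list does not cover it.

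Gpat3, which acylates glycerol-3-phosphate to lysophosphatidic acid, shares the glycerolipid pathway with Mogat2 and went the other way. It was at 2.77, 0.93 and 1.62 in young, 5.55, 2.75 and 11.70 in old, and 3.85, 7.19 and 2.29 in 3HB kidneys, a log2 difference of 1.34 (SE 0.58, n = 3 and 3) between old and young, with old replicate 2 just below young replicate 1. It too was highest in old replicate 3 and 3HB replicate 2. Ether lipid metabolism held Enpp2, the secreted phospholipase Pla2g2c and the lysophospholipase D Gdpd3, all lower in old kidneys. Pla2g2c was at 5.32 to 11.81 in young, 0.16 to 1.09 in old and 0.29 to 0.73 in 3HB kidneys, with a log2 difference of -2.61 (SE 0.39, n = 3 and 3) between old and young. Gdpd3 was at 6.07 to 14.82 in young, 1.35 to 3.81 in old and 0.68 to 5.38 in 3HB kidneys, and neither gene separated 3HB from old kidneys.

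Cholesterol metabolism held Apoe, Apoh and Lrp2 (megalin), the endocytic receptor of the proximal tubule that takes up filtered proteins and lipoproteins. Lrp2, the gene of the 9 called for 3HB, was at 68.59, 70.38 and 116.60 in young, 89.42, 87.86 and 105.30 in old, and 148.08, 154.52 and 143.00 in 3HB kidneys. Its 3HB against old difference of 0.66 (SE 0.088, n = 3 and 3) chose it for its table and is a description. The adipocytokine pathway, which KEGG gives for Acsl6, added the glucose transporter Slc2a4, Prkcq and the neuropeptide Npy. Slc2a4 was at 21.60, 16.60 and 20.44 in young, 7.54, 11.12 and 10.84 in old, and 12.59, 18.56 and 11.71 in 3HB kidneys, so its 3HB and old samples did not overlap (log2 difference 0.49, SE 0.25, exact permutation p = 0.1, n = 3 and 3). Prkcq was at 1.93 to 2.68 in young and 0.99 to 1.23 in old kidneys, and Npy at 0 to 0.90 in young, 17.97 to 49.27 in old and 9.95 to 68.83 in 3HB kidneys.

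**Figure D4:**
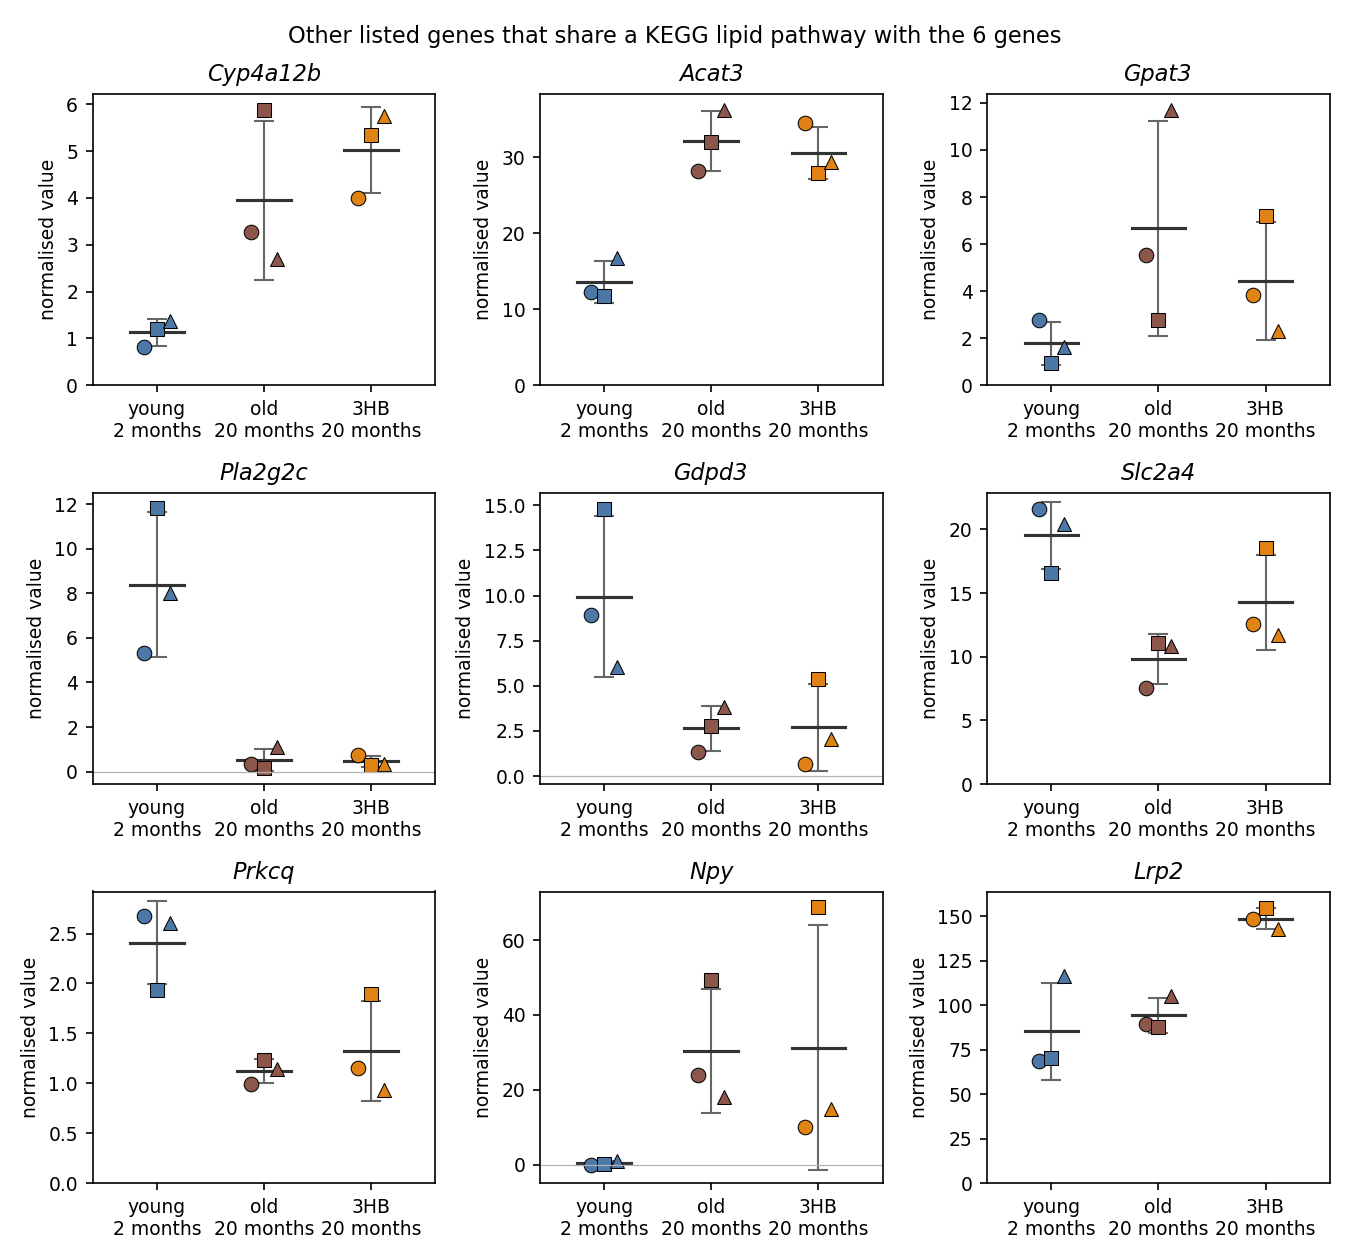
Normalised value (y axis, unit not stated by the authors) in the young, old and 3HB kidneys (x axis) of 9 other listed genes. These share with the 6 genes a KEGG pathway counted here as lipid-related, which for Slc2a4, Prkcq and Npy is adipocytokine signalling. Points are samples, with a bar at the mean and whiskers of 1 SD. Acat3, Cyp4a12b, Gpat3 and Npy have higher means in old than in young kidneys, Pla2g2c, Gdpd3, Slc2a4 and Prkcq lower ones, and the 3HB samples of Lrp2 lie between 143.00 and 154.52.

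By the GO terms in the tables, Apoe and Apoh shared 3 terms (cell surface, chylomicron and cytoplasm) and Acsl6 and Mogat2 shared 3 (endoplasmic reticulum membrane, integral component of membrane and triglyceride biosynthetic process). Across the 9 samples, the genes with the most similar pattern were found by Pearson's r of log2(value + 1) among 449 or 450 listed genes. These samples share the group differences for which the genes were listed, so r is a description. Gpat3 was nearest to Acsl6 (r = 0.97), followed by the tight junction gene Cldn1 and an unnamed transcript (ENSMUSG00000121477), both at 0.95. Acsl6 itself had a highest group mean of 0.68, under the 1 asked of the ranked genes, so its r comes from values near the lower end of the scale. Cldn1, listed as 1 of 8 podocyte and parietal epithelium markers, was also highest in old replicate 3 (15.13) and 3HB replicate 2 (12.43). The part of these cells was not tested. Nearest to Apoe were the potassium channel interactor Kcnip2 (0.97), Gpat3 (0.95) and the antigen peptide transporter Tap2 (0.94). The pseudogene H2-T-ps (0.99) and 2 immunoglobulin kappa variable segments (0.99 and 0.98) were nearest to Apoh, and such family members can share reads with close copies. Serinc2 (0.92), Gm12166 (0.90) and the pyruvate dehydrogenase kinase Pdk3 (0.90) were nearest to Ehhadh. Hmga1b (0.97), the glutaredoxin gene Glrx (0.96) and Tmem61 (0.95) were nearest to Mogat2, and Epb41l4b (0.94), the steroid dehydrogenase Hsd3b8 (0.90) and Gm15545 (0.89) to Enpp2. Pdk3, an inhibitor of pyruvate entry into the citric acid cycle, was at 23.06, 27.77 and 32.96 in young, 14.19, 16.94 and 11.44 in old, and 22.73, 14.94 and 23.80 in 3HB kidneys, so that 3HB replicate 2 was its lowest 3HB sample as for Ehhadh.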

How the data were processed

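RNA was taken with Trizol from kidneys, and libraries were sequenced on an Illumina instrument as paired-end reads. The methods of the study name muscle for this step, whereas the labels and results name kidney. The processing notes of the submitters list CASAVA, HISAT2, StringTie and GRCm38 without versions. The deposited values are a normalised score per gene and sample with 2 decimals, made by the authors, and whether they are TPM or FPKM, the annotation and the rule for calling genes are not given in the sources used here. The 2 tables hold only called genes and give no totals, so no model across genes was fitted and depth is unknown. The 13 genes in both tables were used once.

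From these values, the difference between group means of log2(value + 1) was computed with an SE from the SDs of both groups. A two-sided exact permutation test over 20 splits of 3 against 3 was run for 18 comparisons of the 6 genes and 66 of 22 other listed genes (pathway, marker and KEGG), with a smallest p of 0.1. This was the plan for tables of called genes. Groups were called free of overlap when every sample of 1 group was above every sample of the other. Named genes are the 6 genes, listed genes of the pathway lists, the 3 genes nearest to each by Pearson's r among genes with a highest group mean of at least 1, and genes that share a KEGG pathway counted as lipid-related. Listed cell type markers are also named beside their counts, those of macrophages, hepatocytes and B cells after their values were seen, as was Slc7a12. The 6 genes and the lists were chosen with earlier results of these data known.

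Of 13 marker lists with 154 genes, 14 genes were in a table. Of 18 proximal tubule markers Lrp2 was listed and of 10 skeletal muscle markers 0, so the tissue could not be checked further. Alternatives were a pseudocount of 0.1, medians, each sample left out, a replicate block and matching by synonyms. On values simulated for 489 genes in old against young, 6 of 6 checks passed. Software was matplotlib 3.10.9, scipy 1.17.1, pandas 2.3.3 and numpy 2.4.6 under Python 3.11.15. Gene positions came from the GENCODE annotation of GRCm38 and promoters from RefSeq.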

Additional observations from a re-analysis of the deposited data

How the results depend on the processing

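Of 236 values recomputed under an alternative, 218 stayed within the spread or count limit without a change of sign, 16 moved and 2 changed sign. Among the 218, the Acsl6 difference between 3HB and old medians was 0. The median absolute difference of the 6 genes without each sample, also added after seeing the data, was 0.21 to 0.45 between 3HB and old kidneys, lowest without old replicate 3. With 0.1 added in place of 1, the Acsl6 difference was 1.98 for old against young and 1.83 for 3HB against young. Between 3HB and old kidneys, Acsl6 went from -0.095 to between -0.25 and 0.13 on leaving out each sample (0.13 without old replicate 3) and to 0.032 without both old replicate 3 and 3HB replicate 2, the latter an alternative chosen after seeing the data. The number of the 6 genes without overlap between 3HB and old kidneys, 1 with all samples, was 1 to 3 on leaving out each sample (3 without 3HB replicate 2, and 2 without old replicate 1, 2 or 3 or 3HB replicate 3) and 4 without both samples. Fewer samples make overlap less likely, and among the 376 genes called for age and not for 3HB the share went from 11.7% to between 18.6% and 26.9%, and to 41.2% without both. Ehhadh had no overlap with all samples kept, and leaving samples out cannot create overlap, so these settings do not test it. Taking the replicate number as a block left the differences as they were (Ehhadh, 3HB against old, 0.54, SE 0.20) and its exact sign-flip test cannot go below p = 0.25, the value for Ehhadh. The numbers gave no sign of pairing, since 2 of 9 same-numbered pairs had r over 0.1, with a range of -0.24 to 0.16 over 489 genes. Matching by synonyms added 0 genes to the lists. No depth, interval from counting or adjusted p could be had from tables of called genes, and n = 3 a group limits every comparison.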
